A study of Mus musculus with 2 samples.

Results

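The mouse genes Mcpt1, Mcpt2, Mcpt4, Mcpt8, Tpsab1, Tpsb2, Cpa3 and Cma1 encode the proteases that mast cells and basophils store in their granules. They were chosen by symbol, by a rule that uses no level but was set with earlier results of these data known, as the chymase, tryptase and carboxypeptidase genes of these cells, and make up 8 of the 31053 genes listed in the files. Each symbol was listed once. Their transcripts were followed in single leukemia cells sorted from the spleen of recipient mice as GFP+ Lin- c-Kit+, a gate for cells that carry the leukemia vector and Kit and lack lineage markers. All cells carried AE9a, a truncated AML1-ETO fusion delivered by a GFP retrovirus, floxed Usp18, and the UBCER-Cre recombinase under a ubiquitin promoter that is active in all tissues once tamoxifen is given. Sick recipients received oil or tamoxifen, and the sort followed the first dose by 3 days. Each group is 1 library, pooled from 3 mice. The genotype labels are Usp18f/f for oil and Usp18delta/delta for tamoxifen, whereas the treatment protocol names Usp18+/f cells, so the groups are named here by injection. The labels give neither age nor strain.

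The library labelled oil kept 6838 of 7774 barcodes with 66045700 UMIs, and the library labelled tamoxifen kept 6472 of 7311 with 60661486 UMIs. A UMI is 1 captured transcript molecule. The median was 8622.5 and 8209.5 UMIs per kept cell, and 14 barcodes occurred in both libraries. Usp18 itself was at 5.62 CPM in cells labelled oil and 15.4 CPM in cells labelled tamoxifen, so it was not lower where the label names its deletion. CPM is the UMIs of a gene per 1000000 UMIs of its library. Whether these UMIs came from intact or deleted copies of the gene was not tested. Of 10 listed interferon-induced genes, Usp18 among them, 9 had at least 100 UMIs over both libraries. These 9 were higher beyond counting error in cells labelled tamoxifen, with a median log2 ratio of 1.58. Over the 10527 genes with that minimum, 19.3% were higher beyond counting error. Elane, S100a8, Epx, Trac and Cdh5, which mark neutrophils, eosinophils, T cells and endothelium, had 0 UMIs in both libraries, and Mpo had 2 and 2. Other genes of these lists were seen. Of 11 neutrophil genes 4 had 0 UMIs and 2 had at least 100, among them Ctsg with 93 and 39. The neutrophil list summed to 6.56 and 6.28 CPM (UMIs of a gene per 1000000 UMIs of its library). The eosinophil list summed to 0.12 and 0.12 CPM, the T and NK cell list to 0.44 and 0.69, and the endothelial list to 0.27 and 0.51. Erythroid transcripts were abundant, with 12 of 12 listed genes measured and a sum of 8499 and 9817 CPM. Of 11 mast cell markers 10 reached 100 UMIs over both libraries, the exception being Tpsb2. Of 9 basophil markers, Mcpt8 among them, 6 reached that minimum. The basophil list summed to 1581 and 1430 CPM, most of it from Ms4a2, Fcer1a and Gata2, which are also mast cell markers. The basophil markers below that minimum were Prss34 with 57 and 42 UMIs, Itga2 with 2 and 4, and Cebpa with 0. There is 1 library per group, so no test could be run, and all intervals below are 95% intervals for counting error only. Every difference is one between these libraries, not between conditions.

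Mast cells pack serine proteases and a carboxypeptidase into secretory granules, where they are held on the proteoglycan serglycin and are released when the high-affinity IgE receptor is crosslinked. As classes, chymases cut after aromatic residues and tryptases after basic residues, and single members can differ. In mice, Mcpt1 and Mcpt2 are best known from mast cells of mucosal surfaces, whereas Mcpt4, Cma1, the tryptases and Cpa3, a carboxypeptidase that trims the C-terminal ends of peptides, are best known from mast cells of connective tissue. Mcpt8 is the protease by which mouse basophils are commonly recognised.

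The 5 chymase-type genes lie in 1 cluster on chromosome 14 (GRCm38), from Cma1 (chr14:55941451-55944675, minus strand) through Mcpt1 (chr14:56017971-56020384, plus), Mcpt2 (chr14:56042041-56044642, plus) and Mcpt4 (chr14:56059629-56062313, minus) to Mcpt8 (chr14:56082166-56085273, minus), within 144 kb. Tpsab1 (chr17:25343245-25345562, minus) and Tpsb2 (chr17:25366305-25369098, plus) are neighbours on chromosome 17. Cpa3 lies alone on chromosome 3 (chr3:20215620-20242181, minus). All 8 are protein-coding in the GENCODE M21 annotation. Reads of the 3′ kit fall near transcript ends, and over the last 300 bases the most similar member pair, Mcpt1 and Mcpt2, shared 58.4% of aligned positions. Mcpt1 and Tpsab1, a chymase and a tryptase, shared 50.9%, and the tryptases Tpsab1 and Tpsb2 44.5%. Only the longest coding transcript of each gene was aligned. Over whole transcripts Mcpt1 and Mcpt4 were the most similar members, at 72.9%. How the authors' counting treated reads shared by such genes was not tested.

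The promoters of 4 members are shown. Mcpt4 was seen more often in cells with Mcpt1 than in cells without it, as described below, and Cpa3 less often. Cpa3 was still seen in 21.5% and 20.6% of cells with Mcpt1 (labelled oil and tamoxifen), against 19.4% and 14.9% for Mcpt4. RefSeq (GRCm38.p6) gave a promoter for 5 of the 8 genes, and Mcpt2, Tpsab1 and Tpsb2 had no entry. Each line is the 250 bases before the annotated start, 5′ to 3′ on the strand of the gene. Capitals mark GATAA, the core letters bound by GATA factors, and TATAAA, the TATA box letters, searched on both strands. The windows are chr14:56017714-56017963 (plus) for Mcpt1, chr14:56062311-56062560 (minus) for Mcpt4, chr3:20242182-20242431 (minus) for Cpa3 and chr14:55944676-55944925 (minus) for Cma1.
Mcpt1: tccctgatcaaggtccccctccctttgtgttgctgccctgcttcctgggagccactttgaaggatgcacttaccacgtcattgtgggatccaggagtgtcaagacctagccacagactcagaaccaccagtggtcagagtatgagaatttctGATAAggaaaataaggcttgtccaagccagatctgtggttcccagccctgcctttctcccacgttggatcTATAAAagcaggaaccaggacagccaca
Mcpt4: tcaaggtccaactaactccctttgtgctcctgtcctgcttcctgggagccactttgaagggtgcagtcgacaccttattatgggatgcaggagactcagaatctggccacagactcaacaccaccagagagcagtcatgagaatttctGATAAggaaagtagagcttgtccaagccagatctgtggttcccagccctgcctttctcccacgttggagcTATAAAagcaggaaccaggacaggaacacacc
Cpa3: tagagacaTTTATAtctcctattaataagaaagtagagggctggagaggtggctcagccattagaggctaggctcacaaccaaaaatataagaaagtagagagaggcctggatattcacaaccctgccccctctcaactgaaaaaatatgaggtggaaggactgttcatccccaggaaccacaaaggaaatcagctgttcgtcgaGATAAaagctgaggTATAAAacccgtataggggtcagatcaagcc
Cma1: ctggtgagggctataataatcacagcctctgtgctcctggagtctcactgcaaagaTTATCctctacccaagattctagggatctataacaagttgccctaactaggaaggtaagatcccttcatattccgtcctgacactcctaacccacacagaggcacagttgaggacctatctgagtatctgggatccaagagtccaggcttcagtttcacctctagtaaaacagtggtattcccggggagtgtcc

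Mcpt1 and Mcpt4 shared 81.0% of aligned positions in this window, and the next pair, Mcpt4 and Mcpt8, shared 50.4%. In Mcpt1 GATAA began 98 bases and TATAAA 28 bases before the start, and in Mcpt4 the distances were 102 and 32 bases. Cpa3 had GATAA at 45 bases and TATAAA at 31 bases, with a further TATAAA on the other strand at 242 bases. Cma1 held GATAA only, on the other strand. In Mcpt8 neither set of letters was present in the window. GATAA occurred in 22.6% and TATAAA in 12.4% of 32851 promoter windows of the same length, and both together in 4.16%. The matches are given as a description.

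Levels in the libraries came first. Cma1, the chymase of connective tissue mast cells, had the most UMIs of the 8 genes, with 34169 or 517 CPM (512 to 523) in the library labelled oil and 25833 or 426 CPM (421 to 431) in the library labelled tamoxifen. Cpa3, the carboxypeptidase, had 23233 UMIs or 352 CPM (347 to 356) and 19479 UMIs or 321 CPM (317 to 326). In both libraries these genes were the first and second of the 8, and their intervals did not overlap between libraries, where over 10527 genes 39.8% were lower and 19.3% higher in the library labelled tamoxifen beyond counting error. Mcpt1, the mucosal chymase, had 14411 UMIs or 218 CPM (215 to 222) against 7472 UMIs or 123 CPM (120 to 126). Mcpt2, its neighbour, had 9948 UMIs or 151 CPM (148 to 154) against 6144 UMIs or 101 CPM (98.8 to 104). Mcpt4 had 1883 UMIs or 28.5 CPM against 1275 UMIs or 21.0 CPM. UMIs count transcript ends and were not scaled by length.

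The remaining members were scarce. Tpsab1, a tryptase, had 774 and 584 UMIs, or 11.7 and 9.63 CPM. Mcpt8, the basophil protease, had 213 and 81 UMIs, or 3.23 and 1.34 CPM. Of Tpsb2, the other tryptase, 6 cells of the library labelled oil held 32 UMIs, 14 and 12 of them in a single cell each, and 3 cells labelled tamoxifen held 1 each. It was the only member below 100 UMIs over both libraries. The order of the 8 levels was the same in both libraries, and the intervals of neighbours in that order did not overlap in either.

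**Figure D1:**
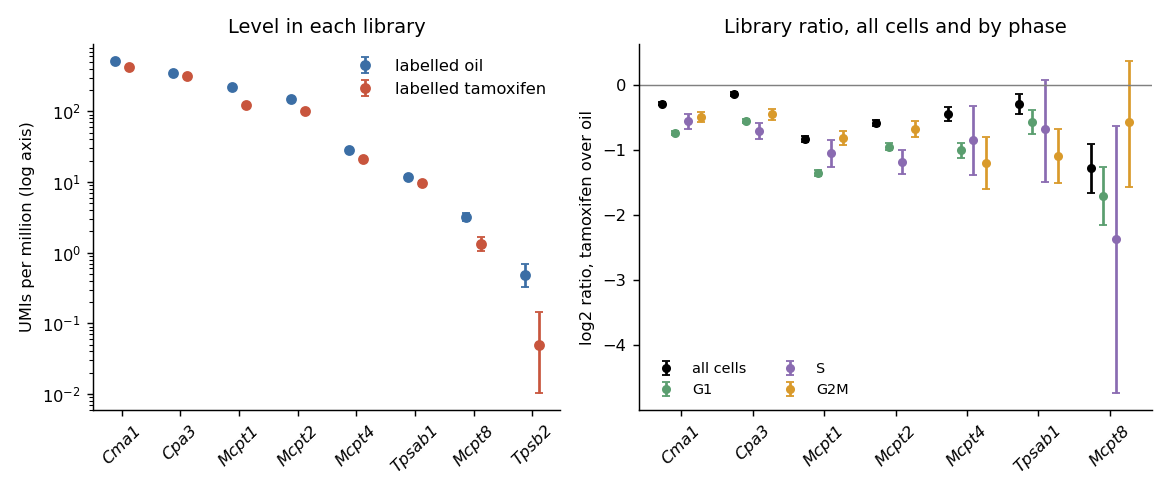
The left panel plots CPM on a log axis for each of the 8 genes in the libraries labelled oil (blue) and tamoxifen (red), with exact Poisson intervals at 95%. The right panel plots the log2 ratio of tamoxifen over oil with its counting interval for the 7 genes of at least 100 UMIs, over all cells (black) and within cells called G1, S and G2M; every point lies below 0, and the intervals of Tpsab1 in S and Mcpt8 in G2M reach above it.

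All 8 genes were lower in the library labelled tamoxifen beyond counting error, and 7 of the 8 had at least 100 UMIs. Over the 10527 genes with that minimum, 39.8% were lower beyond counting error, as were 52.8% of the 6001 genes with at least 20 CPM in a library. The log2 ratio was -0.82 (-0.87 to -0.78) for Mcpt1, -0.57 (-0.62 to -0.53) for Mcpt2, -0.44 (-0.54 to -0.34) for Mcpt4 and -1.27 (-1.66 to -0.90) for Mcpt8. It was -0.28 (-0.44 to -0.13) for Tpsab1, -0.28 (-0.30 to -0.26) for Cma1 and -0.13 (-0.16 to -0.10) for Cpa3, and -3.29 (-5.64 to -1.62) for the few UMIs of Tpsb2. Mcpt1 at 1.77-fold and Mcpt8 at 2.42-fold were the 2 of 7 genes at least 1.5-fold lower, against 1.27% of all genes. None of the 7 was 1.5-fold higher, as 2.09% of all genes were. Of the 7, Mcpt8 and Tpsab1 did not reach 20 CPM in a library. Among the genes that did, 0.65% were at least 1.5-fold lower, and Mcpt1 was the only protease of these. The median over the 7 genes was -0.44, and over all genes -0.06. Ordered from the lowest ratio, Mcpt8 was number 7, Mcpt1 number 38 and Mcpt2 number 144 of 10527, whereas Cpa3 was number 3866.

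The proteases therefore did not share 1 ratio. The 3 chymases Mcpt1, Mcpt2 and Mcpt4 summed to 397 and 245 CPM, a log2 ratio of -0.69 (-0.72 to -0.67), while Cpa3 and Cma1 summed to 869 and 747 CPM, a ratio of -0.22 (-0.24 to -0.20). All 8 together took 1282 and 1003 CPM, with a ratio of -0.35 (-0.37 to -0.34). The direction of several ratios rested on the cells kept. Among the 673 and 771 cells that had 1000 genes or more and no more than 5% mitochondrial UMIs, the sum had a ratio of 0.11 (0.06 to 0.15), Cpa3 of 0.41, Mcpt4 of 0.50 and Cma1 of 0.07, while Mcpt1 stayed lower at -0.12 (-0.23 to -0.005).

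Detection in single cells was compared after each cell was thinned to 3000 UMIs, which left 6330 and 6127 cells and left out 508 and 345 shallower ones. Cma1 was seen in 30.7% (29.6 to 31.9) of cells labelled oil and 28.6% (27.5 to 29.7) of cells labelled tamoxifen, and in 45.04% and 41.8% without thinning. Cpa3 was seen in 27.9% and 25.2% (39.1% and 35.0% without thinning). Mcpt2 was seen in 15.5% and 11.3% (23.1% and 18.5%), Mcpt1 in 13.3% and 10.1% (19.7% and 15.3%), and Mcpt4 in 4.30% and 2.87% (6.67% and 5.01%). Tpsab1 was seen in 3.43% and 2.51%, Mcpt8 in 1.14% and 0.375%, and Tpsb2 in 5 and 2 cells. At least 1 of the 8 was seen in 52.3% (51.1 to 53.6) and 47.7% (46.4 to 48.9) of cells. The sort holds no cell type that should lack these genes, so the share due to free RNA could not be set. In cluster 4, the cluster with the lowest summed level described below, the shares were 7.18% and 5.50% for Cma1 and 3.22% and 1.94% for Mcpt1.

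The transcripts sat in few cells. Mcpt1 had a median of 2 thinned UMIs in the cells where it was seen, but its mean was 7.91 and 5.25, and single unthinned cells held up to 212 and 243 UMIs. The tenth of cells with the most Mcpt1 held 96.9% and 99.9% of its thinned UMIs. Mcpt1 was seen in only 13.3% and 10.1% of these cells, so that share was largely set by its detection. The corresponding share for Cma1 was 83.5% and 85.8% and for Cpa3 80.3% and 82.5%. This share was not computed over all genes. Variance over mean was 32.1 and 25.9 for Mcpt1, number 4 of 6451 and number 7 of 6317 genes, and 30.0 and 28.8 for Cma1, number 5 in both. Mcpt2, Cpa3 and Mcpt4 followed, all between number 9 and number 14, whereas the median gene was at 1.04 and 1.05. The share of cells with at least 10 thinned UMIs of Mcpt1 was 2.78% and 1.24%. For Cpa3 it was 5.67% and 4.72%, a smaller difference between libraries.

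Co-detection split the genes into overlapping groups. Among cells with Mcpt1, 59.2% (55.8 to 62.6) also had Mcpt2 in the library labelled oil, against 8.80% of cells without Mcpt1. In the library labelled tamoxifen the shares were 50.7% (46.7 to 54.7) and 6.84%. Mcpt4 was seen in 19.4% and 14.9% of cells with Mcpt1, which was 9.79-fold and 9.78-fold its share in cells without. Cma1 accompanied every other chymase-type gene. It was seen in 64.4% and 65.3% of cells with Mcpt1 and in 76.8% and 77.3% of cells with Mcpt4. Of the 72 and 23 cells with Mcpt8, 86.1% and 95.7% also had Cma1. Cma1 was also seen in 50.8% and 48.9% of cells with Cpa3, against 23.0% and 21.7% of cells without.

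Cpa3 and the mucosal chymases were the exception. Mcpt1 was seen in 10.2% (8.84 to 11.7) of cells with Cpa3 and 14.4% of cells without it in the library labelled oil, and in 8.23% (6.90 to 9.71) and 10.7% in the library labelled tamoxifen. Mcpt2 was seen in 13.6% and 16.2% in the former, and in 9.07% and 12.0% in the latter. For 13 of the 15 pairs of the 6 genes seen most, each gene was more frequent with its partner than without, in each library. Cpa3 with Mcpt1 and Cpa3 with Mcpt2 were the others. The share over pairs of other genes was not computed, so the count is not a result about the proteases. The part of cell cycle phase and depth in it was not tested. Thinned to 5000 UMIs, Mcpt1 in the library labelled tamoxifen was 1.01 times as frequent with Cpa3 as without. Across cells the Spearman correlation of UMIs was 0.51 and 0.44 for Mcpt1 with Mcpt2, 0.31 and 0.30 for Cma1 with Cpa3, and -0.07 and -0.04 for Mcpt1 with Cpa3. These are descriptions over 6330 and 6127 cells that share a library.

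**Figure D2:**
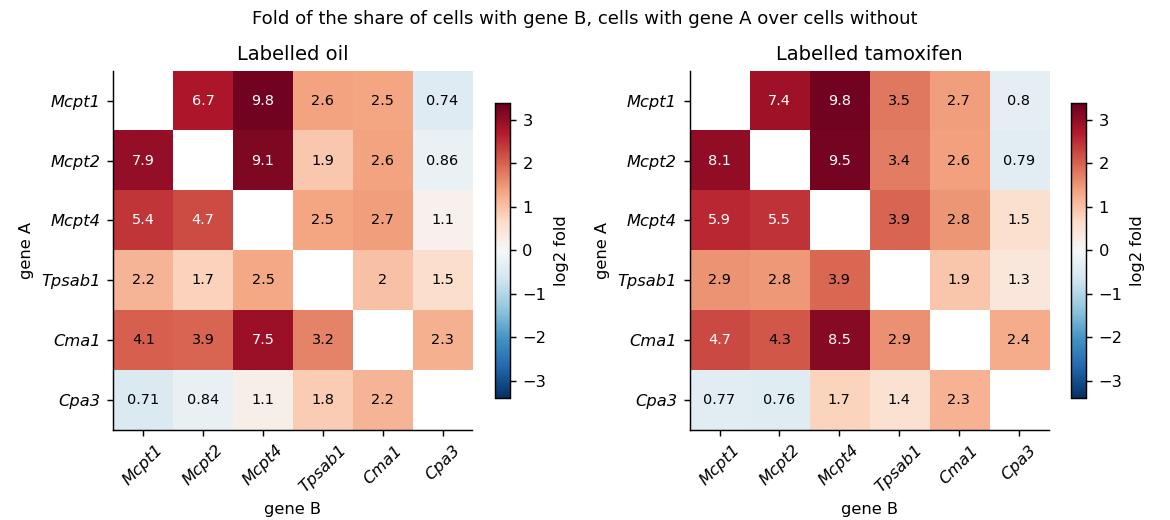
Each cell of the grids gives the share of cells with gene B (columns) among cells with gene A (rows), divided by that share among cells without gene A, with colour on a log2 scale, for the libraries labelled oil (left) and tamoxifen (right), each cell thinned to 3000 UMIs. Values above 1 fill the grids apart from Cpa3 with Mcpt1 and Cpa3 with Mcpt2, which lie between 0.71 and 0.86.

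The common combinations showed the same split. Cpa3 alone of the 6 genes was seen in 12.1% and 11.8% of cells, Cpa3 with Cma1 in 9.07% and 8.83%, and Cma1 alone in 7.20% and 8.57%. The most frequent set with 3 genes was Mcpt1, Mcpt2 and Cma1, in 2.89% and 2.30% of cells. At least 3 of the 8 proteases were seen in 11.6% (10.8 to 12.4) and 8.11% (7.44 to 8.82) of cells, and at least 4 in 3.79% and 2.07%. No thinned cell had more than 6.

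Cells with at least 3 proteases also differed from cells with none in other genes. Serpinb1a, a serpin that inhibits chymotrypsin-like granule proteases, was at 673 CPM in cells with none and 5354 CPM in cells with at least 3 in the library labelled oil, a log2 difference of 2.99 (2.95 to 3.04), and of 3.05 (3.00 to 3.10) in the library labelled tamoxifen. Tph1, which makes serotonin, was higher by 2.86 and 2.66, Fcer1a, the ligand-binding chain of the IgE receptor, by 2.52 and 2.42, and Kit by 2.24 and 1.95. Mrgprb2, a receptor of connective tissue mast cells, had 1 and 2 UMIs in cells with none and 40 and 25 UMIs in cells with at least 3. These genes were picked from longer lists after their values were seen. Of the same lists, Alox5 was lower, by -0.60 (-0.84 to -0.37) and -0.36 (-0.64 to -0.08). Stat5a differed by 0.03 and 0.20, with intervals that held 0. The share over all genes was not computed. Erythroid genes went in both directions. The hemoglobin genes Hba-a1, at 1.76 and 1.74, and Hbb-bs, at 0.75 and 0.93, were higher in cells with at least 3 proteases, whereas Car1 differed by -1.68 and -1.72. The proliferation genes Mki67 and Top2a differed by -1.71 to -1.98. Isg15, an interferon-induced gene, differed by -0.04 and -0.05, with intervals that held 0.

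Over single cells the pattern most like the summed 8 genes was again that of Serpinb1a. Its mean within-library Spearman correlation was 0.62 (0.65 and 0.60), against a median of 0.01 over 6078 genes. Txnip, Malat1, Vim, Sh3bgrl3, Srgn, Lgals3, Gsn, Crip1 and Ahnak came next, between 0.44 and 0.49. Among the most opposed genes were Rps2 at -0.54, Ptma at -0.50 and Npm1 at -0.45. For single members, Mcpt1 was most like Mcpt2, Lgals3 and S100a6, and Mcpt2 most like Mcpt1, Lgals3 and Csf2rb2. Cpa3 was most like Srgn, the core protein of serglycin, at 0.47, Fcer1a at 0.46 and Slc7a8 at 0.41. Cma1 was most like Serpinb1a at 0.50, Malat1 and Gsn. All cells of a library share their depth and preparation, so these values carry no test.

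Protease transcripts were highest in cells outside S and G2M. Cells were called from S and G2M gene lists, with 46.1% G1, 19.7% S and 34.2% G2M in the library labelled oil and 60.4%, 13.2% and 26.3% in the library labelled tamoxifen. The summed 8 genes were at 3116 CPM in G1, 348 in S and 411 in G2M of the library labelled oil, and at 1804, 203 and 276 CPM of the library labelled tamoxifen. G1 stood 7.58-fold and 6.53-fold above G2M. The fold over G2M ranged from 3.995 for Tpsab1 to 9.73 for Mcpt4 in the former library and from 3.33 for Mcpt8 to 11.1 for Mcpt4 in the latter, Tpsb2 left aside.

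Within each phase the summed difference between libraries was wider than over all cells. In G1, Mcpt1 was at 527 CPM (oil) and 207 CPM (tamoxifen), a log2 ratio of -1.35 (-1.39 to -1.30). Mcpt2 had -0.94, Mcpt4 -0.999, Mcpt8 -1.70, Cma1 -0.73, Tpsab1 -0.56 and Cpa3 -0.54, and the sum -0.79 (-0.81 to -0.77). All 7 genes measured in G1 were lower beyond counting error, as were 35% of 9673 genes there, whose median was -0.09, while 9.51% were higher. In S the sum had a ratio of -0.77 (-0.85 to -0.70), with 5 of 5 measured genes lower beside 22.7% of all genes lower and 7.43% higher. In G2M it was -0.57 (-0.62 to -0.53), with 6 of 6 lower beside 33.5% lower and 10.5% higher. The G1 cells of the library labelled tamoxifen include most cells of clusters 5 and 6, described below, which are nearly absent from the other library.

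Clusters were then built without the proteases, the other mast cell and basophil genes and the genes of both protease loci, and are given by number. Cluster 0 held 3197 cells, 27.8% of the library labelled oil and 20.01% of the library labelled tamoxifen. It was led by S100a6, Klf2, Fxyd5 and Ahnak, and 93.9% of its thinned cells were called G1. Over both libraries it had the highest level of 5 members with at least 100 UMIs, with 979 CPM of Mcpt1, 632 of Mcpt2, 134 of Mcpt4, 58.7 of Tpsab1 and 2044 of Cma1. Mcpt8 was at 10.9 CPM (9.46 to 12.6) there, and its level in cluster 8, 12.7 CPM (3.47 to 32.6) from 4 UMIs, did not differ beyond counting error. The Cpa3 level of cluster 0 was 506 CPM. Cluster 3 held 1868 cells, 12.5% and 15.7% of the libraries, was led by Cx3cr1, Creb3l1 and Trnp1, and 94.2% of its thinned cells were called G1. It had the highest level of Cpa3, at 1913 CPM, with 895 CPM of Cma1, but only 25.2 CPM of Mcpt1 and 38.6 of Mcpt2.

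The same genes therefore stood in different proportions in different cells of 1 library. In the library labelled oil there were 1.83 UMIs of Mcpt1 per UMI of Cpa3 in cluster 0 and 0.010 in cluster 3, and in the library labelled tamoxifen 2.18 and 0.016. Cma1 per Cpa3 was 3.66 and 0.43 in the former library and 4.93 and 0.51 in the latter. Cluster 7, with 466 cells of which 92.9% were called G2M, resembled cluster 0 in its leading genes Tppp3 and Ahnak and held 352 CPM of Mcpt1, 296 of Mcpt2 and 590 of Cma1 against 114 of Cpa3. Cluster 1, with 2224 cells led by histone genes and 77.0% in G2M, held 19.6 CPM of Mcpt1 and 63.0 of Cma1. The lowest sum was in cluster 4, led by Hmox1 and replication genes such as Hells and Cdc6, at 118 CPM, against 4367 CPM in cluster 0. At least 3 proteases were seen in 33.6% and 29.5% of thinned cells of cluster 0 and in 0.536% and 0.485% of cluster 4.

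Clusters 5, 6 and 9 were 97.7%, 94.7% and 98.2% cells of the library labelled tamoxifen and cannot be told apart from that library. Cluster 6 was led by interferon-induced genes such as Ifit1, Slfn5 and Oasl2, and its proteases summed to 308 CPM although 90.7% of its thinned cells were called G1. Cluster 5, led by Gm15892, C920021L13Rik, Snhg10 and Rel, summed to 620 CPM with 71.6% in G1, of which Cma1 made 417 CPM. Cluster 9 summed to 127 CPM. Cluster 8 was shallow, with a median of 1077.5 UMIs and 1.16% mitochondrial UMIs, and summed to 2364 CPM. Without the cells under 2% mitochondrial UMIs, an alternative added after seeing the data, the ratio of each measured gene kept its direction.

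**Figure D3:**
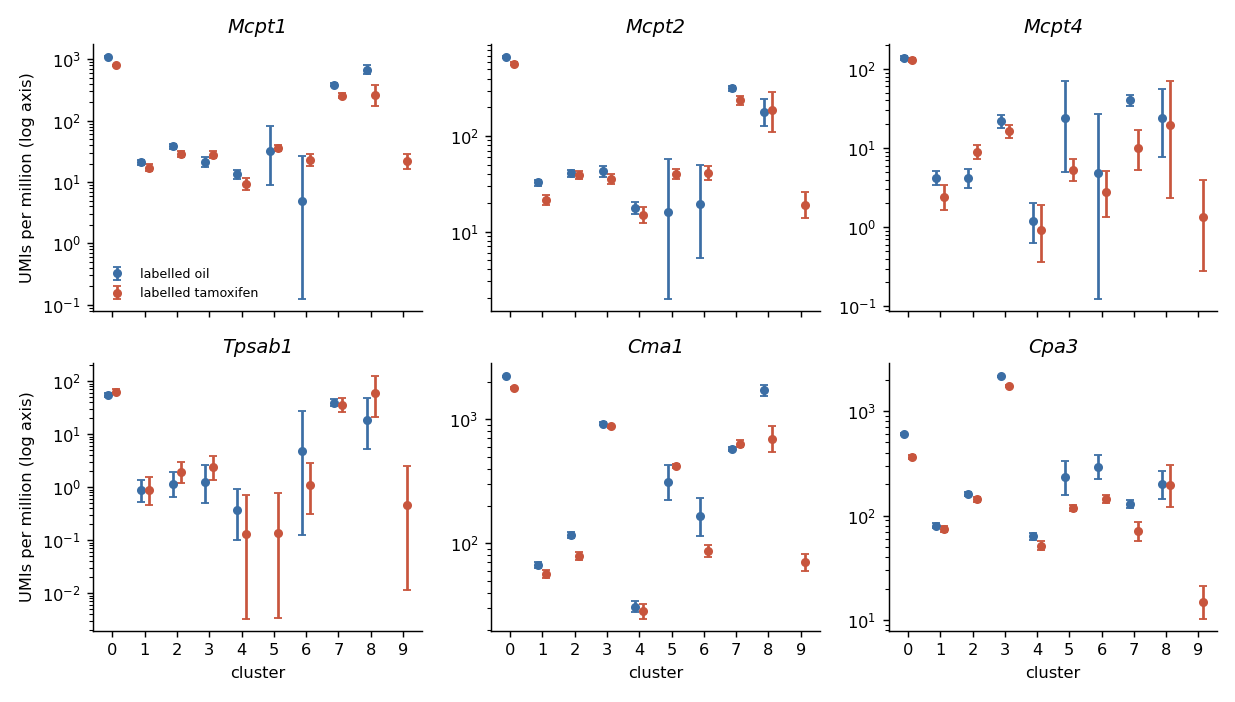
Each panel plots CPM on a log axis for 1 protease in each cluster (x axis) of the libraries labelled oil (blue) and tamoxifen (red), with exact Poisson intervals, for clusters with at least 20 cells and at least 1 UMI in that library. Mcpt1, Mcpt2 and Mcpt4 peak in cluster 0, Cma1 in cluster 0 with cluster 3 also high, and Cpa3 in cluster 3.

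In clusters 0 and 3 the summed ratios, -0.37 and -0.22, were closer to 0 than in G1 cells. In cluster 0 Mcpt1 was at 1109 CPM (oil) and 795 CPM (tamoxifen), a log2 ratio of -0.48 (-0.53 to -0.44), and Mcpt2 at 674 and 574 CPM, a ratio of -0.23 (-0.29 to -0.18). Mcpt8 had the lowest ratio there, -1.29 (-1.81 to -0.80), followed by Cpa3 with 607 and 364 CPM or -0.74 (-0.80 to -0.67), while Mcpt4 at -0.10 (-0.21 to 0.02) was within counting error. Tpsab1 was higher, at 0.21 (0.04 to 0.39). In cluster 0, 5 of 7 members were lower and 1 higher, where 19.6% of 8641 genes were lower and 9.48% higher. In cluster 3 Cpa3 was at 2144 and 1735 CPM, a ratio of -0.30 (-0.34 to -0.27), and Mcpt1 at 21.4 and 28.1 CPM, a ratio of 0.39 (0.05 to 0.73). Given the cluster shares of the library labelled oil, the library labelled tamoxifen would have a log2 ratio of -0.48 for Mcpt1, -0.39 for Cpa3, -0.32 for the sum and 0.17 for Tpsab1, whose sign was the opposite over all cells. In cluster 3, 4 of 5 members were lower and 1 higher, beside 19.7% and 7.34% of 8006 genes. The summed level was lower in 8 of the 10 clusters beyond counting error. The share of single genes that were lower ranged from 3.95% in cluster 9 to 28.1% in cluster 2. Cluster 6, counted as lower, had only 27 cells and 101 protease UMIs in the library labelled oil. The interval of the sum held 0 in clusters 5 and 9, where the library labelled oil had 23 and 3 cells. With finer clusters (resolution 1.0) the sum was lower in 11 of 16 and higher in 1 beyond counting error. With coarser clusters (resolution 0.3) it was lower in 6 of 7 and higher in none.

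Over the range of hemoglobin transcripts Mcpt1 and Mcpt2 went in the opposite direction to Cpa3. Cells of each library were ordered by the share of their UMIs from 4 hemoglobin genes and divided into 5 equal groups. From the lowest to the highest group of the library labelled oil, Mcpt1 was at 14.6, 27.4, 87.3, 231 and 838 CPM, whereas Cpa3 was at 821, 364, 303, 178 and 110 CPM. In the library labelled tamoxifen Mcpt1 went from 13.2 to 448 CPM and Cpa3 from 870 to 96.7 CPM. Mcpt2 went from 19.3 to 538 and from 14.96 to 351 CPM, and Mcpt4 from 10.2 to 79.8 and from 10.5 to 68.5 CPM. Cma1 had no such order, with 371 to 647 CPM and 344 to 693 CPM over the 5 groups. Whether hemoglobin transcripts came from the cells themselves or from free RNA was not tested.

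**Figure D4:**
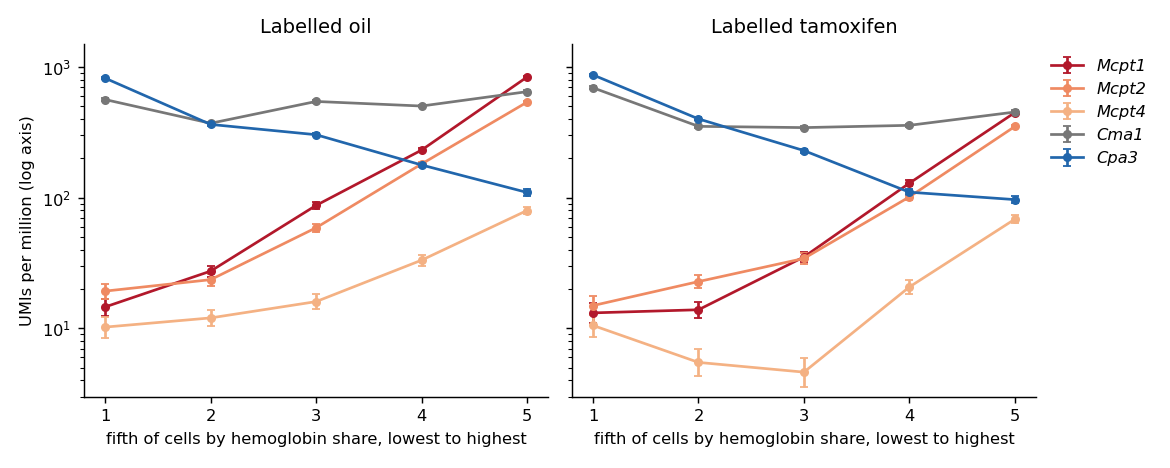
CPM (log axis) of Mcpt1, Mcpt2, Mcpt4, Cma1 and Cpa3 in 5 equal groups of cells ordered by the share of UMIs from hemoglobin genes (x axis, lowest to highest), for the libraries labelled oil (left) and tamoxifen (right), with exact Poisson intervals. The lines of Mcpt1 and Mcpt2 climb and that of Cpa3 falls from left to right in both libraries.

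Kit, the receptor used in the sort, and depth also moved with the proteases. Ordered by the share of UMIs from Kit, the group of cells with the most held 5440 CPM of the summed proteases in the library labelled oil, the 2735 cells with the least held 681 CPM, and the group next to these held 482 CPM. In the library labelled tamoxifen the values were 4190, 397 and 475 CPM. Cma1 spanned 209 to 2707 CPM and Cpa3 106 to 1701 CPM between the outer groups of the library labelled oil. By UMIs per cell, the shallowest of 5 equal groups held 6705 and 4473 CPM and the deepest 256 and 202 CPM. The part of depth in the cluster and phase values was not tested.

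Other mast cell and basophil genes went in both directions over all cells. Of 32 listed genes 26 had at least 100 UMIs, of which 13 were higher, 8 lower and 5 within counting error, with a median log2 ratio of 0.03. Over all genes 19.3% were higher and 39.8% lower. Cd63, a granule membrane protein, had the highest ratio at 0.97 (0.53 to 1.43) from 66 and 119 UMIs, followed by Kit at 0.44 (0.40 to 0.47) and Tph1 at 0.35. The lowest were Mrgprb2 at -0.49, Cd200r3, a basophil and mast cell surface receptor, at -0.30, and Fcer1a at -0.26. Hdc, which makes histamine, was at 589 and 736 CPM, a ratio of 0.32 (0.30 to 0.34). Within phases more of the list was lower than higher. In G1 cells 13 of 24 genes were lower and 4 higher, beside 35% and 9.51% of all genes, with a median of -0.21, Kit at 0.23 and Fcer1a at -0.56. In S 7 of 20 were lower and 4 higher, beside 22.7% and 7.43% of all genes, and in G2M 9 of 21 were lower and 2 higher, beside 33.5% and 10.5%.

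Genes for storing, activating and inhibiting granule proteases gave 8 lower, 3 higher and 4 within counting error of 15 measured, with a median of -0.07, beside 39.8% lower and 19.3% higher over all genes. Among the lowest were Serpina3g at -0.74 (-1.24 to -0.26) from 102 and 56 UMIs, and Serpinb1a at -0.44 (-0.46 to -0.43), with 1400 and 1032 CPM. The highest were Serpini1 at 0.28, Ctse at 0.24 and Ndst2, which sulfates heparin in mast cells, at 0.19. Srgn was at 3761 and 3749 CPM, a ratio of -0.005 (-0.013 to 0.004). Ctsc, which removes the activation peptide of chymases, had a ratio of -0.21 (-0.35 to -0.07).

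Of the neighbours of the chymase genes on chromosome 14 only Ctsg, cathepsin G, reached 100 UMIs, with 93 and 39 and a log2 ratio of -1.13 (-1.71 to -0.58). The granzyme genes Gzmc, Gzmd, Gzme, Gzmf, Gzmg and Gzmn had 0 UMIs in both libraries. Next to the tryptases on chromosome 17, Tpsg1, a transmembrane tryptase, had 195 UMIs in 72 cells and 260 UMIs in 75 cells, a ratio of 0.54 (0.26 to 0.81), opposite in sign to Tpsab1. Tpsab1 was also seen in 39 and 44 of those cells.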

How the data were processed

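Single-cell RNA was measured with the 10x Chromium V3 kit in 1 library of cells labelled oil and 1 labelled tamoxifen, each pooled from 3 mice. The authors deposited UMI counts per gene and barcode, made with Cell Ranger 3.0.2 on mm10 per the submitters' processing notes, which also name Seurat. Every column of values was mapped to a sample, and no authors' comparison was used.

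Barcodes were kept that had 500 genes or more and no more than 10% mitochondrial UMIs. UMIs were summed per library and divided by the library total (CPM). Poisson, Clopper-Pearson and conditional binomial intervals at 95% were exact and cover counting error only. Genes with at least 100 UMIs over both libraries formed the background. Shares, co-detection and phases used cells thinned to 3000 UMIs. Clusters came from 2000 variable genes without the proteases, mast cell, basophil, protease locus, mitochondrial and sex-linked genes, with 20 components, 20 neighbours and Leiden resolution 0.5. Doublets were not removed. As an alternative, the top 6% of cells by Scrublet score were removed. Positions came from GENCODE M21 (GRCm38) and promoters from RefSeq (GRCm38.p6). Python 3.11.15, numpy 2.4.6, scipy 1.17.1, scanpy 1.11.5, leidenalg 0.10.2, biopython 1.88 and R 4.3.3 were used, with edgeR 4.0.16 and DESeq2 1.42.0 for alternative scalings of the counts only. The scripts were tested on simulated data.

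The 8 genes and all lists were chosen with earlier results of these data known. Named beside the 8 were the 3 highest and 3 lowest ratios of each list, the 10 genes most and 5 least like the summed proteases among genes seen in at least 5% of cells, the 3 most like each single protease, and locus genes with at least 100 UMIs. Some genes that this rule names are not reported here. Other named genes, such as Hdc, Srgn, Ctsc, the genes compared between cells with 0 and at least 3 proteases, and the locus genes at 0, were chosen after their values were seen. Alternatives changed the cell filter, scaling, cell weights, thinning, phase calls and cluster resolution.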

Additional observations from a re-analysis of the deposited data

Results flagged for a closer look

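For 3 genes the tamoxifen over oil ratio of the labelled libraries was above 0 in 1 cluster and below 0 in others, each beyond counting error. Of 6 proteases measured in at least 2 clusters these were 3, and of 8965 genes 547 or 6.10% did the same. Higher beyond counting error were 8.26% of genes in cluster 2, 7.34% in cluster 3 and 9.29% in cluster 7. The differences between clusters were not tested, since there is 1 library per group. Mcpt1 had a log2 ratio of 0.39 (0.05 to 0.73) in cluster 3 and was lower in 6 other clusters, down to -1.36 in cluster 8. Mcpt4 had a ratio of 1.09 (0.58 to 1.62) in cluster 2 and was lower in 3 others, down to -2.01 in cluster 7. Cma1 had a ratio of 0.14 (0.02 to 0.26) in cluster 7 and was lower in 6 others, down to -1.30 in cluster 8.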

How the results depend on the processing

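No paired analysis was possible because the 2 libraries stand for 1 pool per group and no test was run. Of 80 alternative values of the library ratios, 76 were below 0 and 4 at or above 0. The 4 came from cells that had 1000 genes or more and no more than 5% mitochondrial UMIs, where Mcpt4 was at 0.50, Cpa3 at 0.41, Cma1 at 0.067 and the sum at 0.11, beside Mcpt1 at -0.12, Mcpt2 at -0.26 and Mcpt8 at -0.43. That filter keeps 673 and 771 cells, and the cause was not tested. Tpsb2 gave no value there. With all barcodes Cpa3 was at -0.20, Cma1 at -0.34 and the sum at -0.41, and with up to 20% mitochondrial UMIs the values were -0.20, -0.34 and -0.41. TMM scaling gave Mcpt1 -0.78, Cpa3 -0.089, Cma1 -0.24 and the sum -0.31, and DESeq2 scaling gave Cpa3 -0.093, Cma1 -0.24 and the sum -0.31. Totals without mitochondrial and ribosomal protein genes gave Mcpt1 -0.74, Mcpt2 -0.49, Cpa3 -0.051, Cma1 -0.20 and the sum -0.27. With every cell given the same weight, Mcpt1 was at -0.90, Mcpt2 at -0.72, Cpa3 at -0.22, Cma1 at -0.41 and the sum at -0.46. Without the cells of highest doublet score the sum was at -0.33. Leaving out cells under 2% mitochondrial UMIs, chosen after seeing the data, moved no ratio by more than its counting error.

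The difference in share of cells, tamoxifen minus oil in percentage points, was below 0 in 26 of 27 alternatives, the exception being Tpsb2 thinned to 5000 UMIs, at 0.0017. It was -4.36 for Mcpt1 and -1.52 for Tpsab1 without thinning, and -2.70 for Mcpt2 thinned to 5000 UMIs. At that depth Mcpt1 was 1.01 times as frequent in cells with Cpa3 as without in the library labelled tamoxifen. Phases called without thinning gave a log2 difference of the sum, G1 over G2M, of 3.00 and 2.60. The highest cluster stood 20.6-fold above the lowest at resolution 0.3 and 89.5-fold at 1.0. The cause of these moves was not tested.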

Other observations

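The 936 and 839 barcodes that failed the cell filter also held protease transcripts, at 2225 CPM in the library labelled oil and 1109 CPM in the library labelled tamoxifen, a log2 ratio of -1.005 (-1.05 to -0.95). The ratio was -1.23 for Mcpt1, -1.004 for Cma1 and -0.93 for Cpa3. Mcpt4 was at 31.5 and 31.8 CPM, a ratio of 0.02 (-0.34 to 0.37).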
